A study of Homo sapiens with 4 samples.

Results

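PML ChIP-seq peaks were described at 10 genes that encode RONIN, its co-regulator HCF-1 and factors that work with them at promoters. The genes were THAP11, THAP1, HCFC1, HCFC2, OGT, KMT2A, ZNF143, GABPA, NRF1 and YY1, taken by name. They were chosen with earlier results of these data known, so comparisons with all genes are descriptions only. Their peaks were the entries of the deposited table that gave one of them as the nearest gene. This rule found 16 of the 68937 peaks, for 9 of the 10 genes; HCFC2 was the nearest gene of none. The material was MDA-MB-231, an established triple-negative breast cancer cell line without further treatment in the labels. The study made 2 PML ChIP libraries with a Bethyl antibody to PML and 2 input libraries, and its authors merged the duplicates into 1 peak list with hg38 coordinates. No value therefore has a replicate error, read depth is unknown from the table, and no difference below was tested. A score that is higher than another within the list cannot be shown to differ beyond the spread between replicates.

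RONIN, the product of THAP11, is a zinc-finger protein of the THAP family that binds promoters of growth and metabolism genes and carries HCF-1 to them. HCF-1, the product of HCFC1, does not bind DNA itself; it links such factors to histone-modifying enzymes, among them the methyltransferase KMT2A, and it is modified and cleaved by the sugar transferase OGT. ZNF143 recognises an element that overlaps the RONIN element, and GABPA, NRF1 and YY1 bind other short motifs common in promoters of housekeeping genes. PML organises nuclear bodies and is not itself known as a sequence-specific DNA-binding protein.

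All 9 genes named in the table had a promoter peak, meaning a peak centred within 1000 bp of a transcription start site (TSS). Over all protein-coding genes named in the table the share was 78.6% (10958 of 13948). The authors' score per peak is a whole number of 13 or more; its scale is not stated, and it serves here only to rank peaks of this list. The promoter scores were 345 at KMT2A, 175 at ZNF143, 165 at NRF1, 130 at GABPA, 112 at HCFC1, 72 at YY1, 55 at THAP11, 42 at THAP1 and 36 at OGT. Their median was 112, against 63 for the highest promoter peak of all 10958 genes, and 5 of the 9 lay above the upper quartile of all genes, 106. The other 4 were spread over the rest of the range, down to OGT, with a lower score for 18.6% of all genes. Since there is 1 list, none of the neighbours in this order could be told apart by replicate spread.

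**Figure D1:**
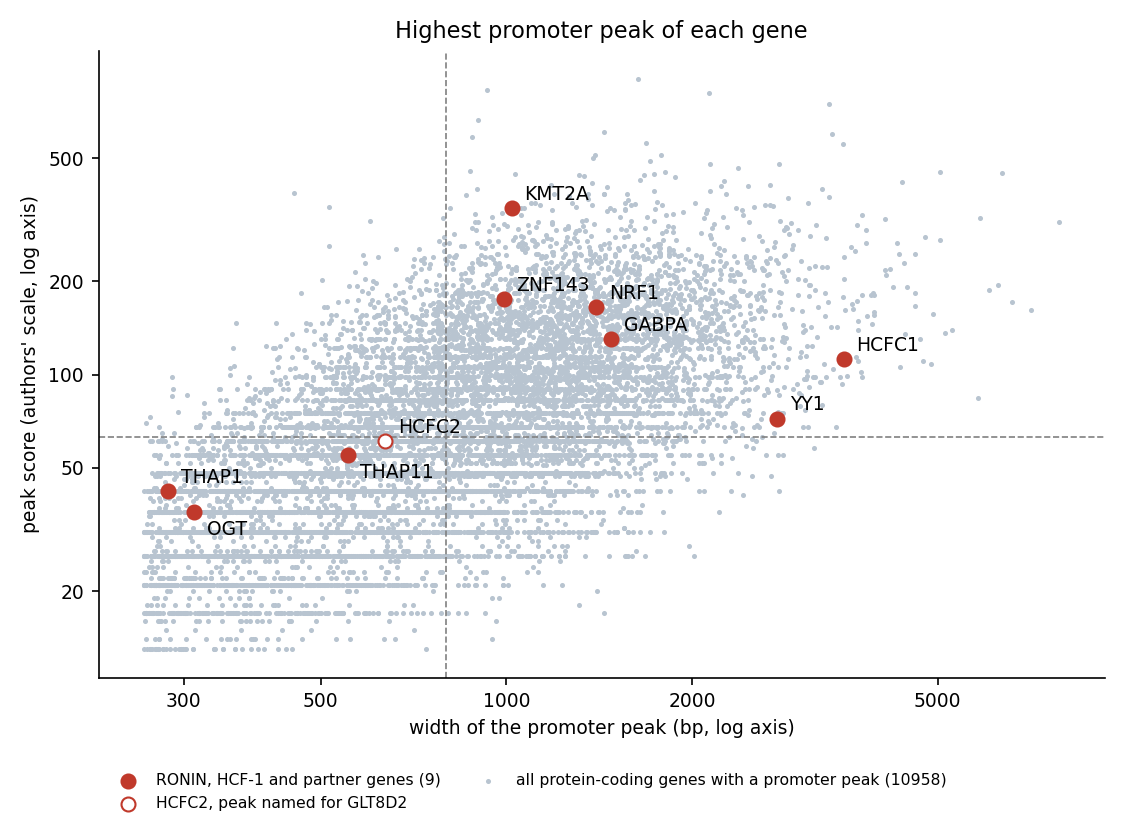
Width (bp, log axis) and score (log axis) of the highest promoter peak, with RONIN, HCF-1 and partner genes as red points, HCFC2 as an open point and all 10958 protein-coding genes with a promoter peak in grey; dashed lines are the medians over all genes, 798 bp and a score of 63. KMT2A lies high at a moderate width of 1020 bp, HCFC1 and YY1 lie far to the right, and THAP1 and OGT lie low on the left.

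Width and score put these genes in different orders. The widest promoter peaks were at HCFC1 (3520 bp) and YY1 (2747 bp), wider than those of 99.5% and 98.5% of all genes, although their scores of 112 and 72 ranked 5 and 6 among the 9. The narrowest were at THAP1 (283 bp) and OGT (312 bp), and the median over the 9 was 1020 bp, against 798 bp over all genes. Spearman's rho of score and width was 0.43 over the 9 promoter peaks and 0.64 over all genes, both across genes of 1 merged list, which are not replicates. By position, with a peak over the start of HCFC2 included, the peak covered the gene start at 8 of 10 genes. The 2 exceptions were THAP11 and THAP1, whose peaks began downstream of the start. Of all genes with a promoter peak and a known strand, 82.0% had a highest peak that covered the TSS. That share uses the TSS implied by the deposited distance, while the 8 of 10 use the RefSeq gene start.

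**Figure D2:**
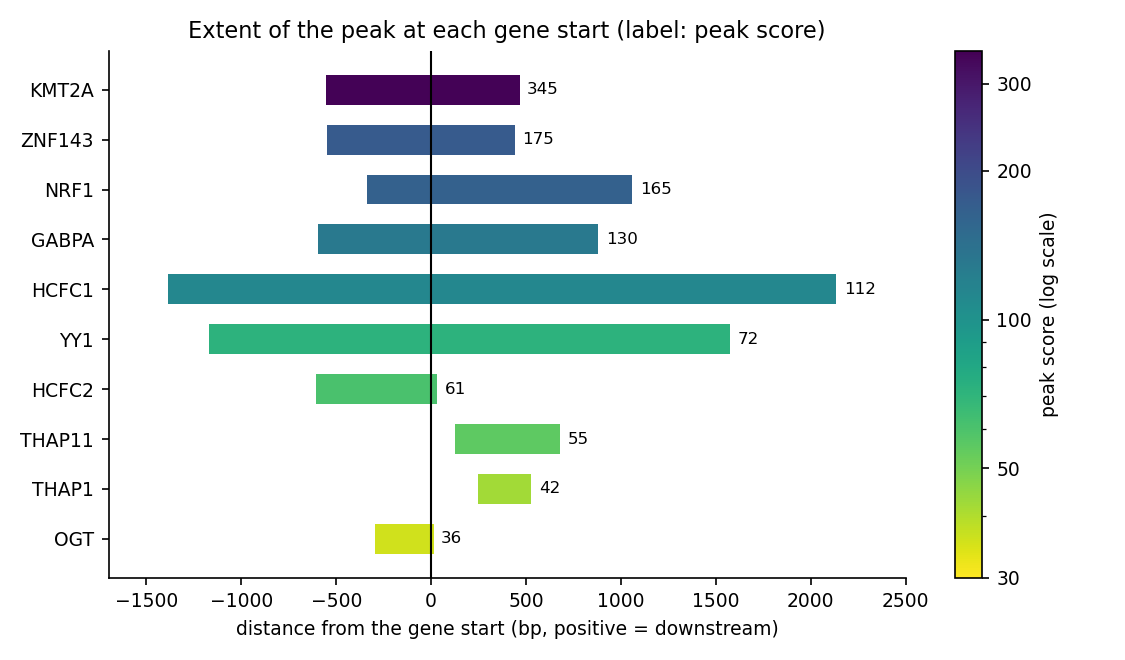
Extent of the peak at each of the 10 gene starts (bp, positive values downstream), ordered and shaded by score, which is printed beside each bar. The peaks of THAP11 and THAP1 lie wholly downstream of the start, those of OGT and HCFC2 end just past it, and the HCFC1 peak reaches from 1384 bp upstream to 2135 bp downstream.

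THAP11, the RONIN gene, had a promoter peak of middle rank inside its own transcript. The gene lies on chromosome 16 from 67842320 to 67844195 on the plus strand, and its peak from 67842448 to 67843000 was 553 bp wide, in the only exon of the gene. It began 128 bp and ended 680 bp downstream of the start. The score of 55 was above that of 39.8% of all genes with a promoter peak, and equal to the median of the 468 such genes on chromosome 16, which was 55. A second peak named for THAP11, from 67833623 to 67834040 with a score of 31, was centred 8489 bp upstream, in an exon of the overlapping centromere protein gene CENPT. The promoter peak also lay within the bounds of CENPT. The 300 bases around the start, from 250 before it to 50 from it onwards, are shown because none of them lay in the peak (RefSeq, GRCh38.p14, chr16:67842070-67842369, plus strand). Capitals mark a match to the ETS motif CCGGAAGT, which GABPA and other ETS factors bind.
THAP11: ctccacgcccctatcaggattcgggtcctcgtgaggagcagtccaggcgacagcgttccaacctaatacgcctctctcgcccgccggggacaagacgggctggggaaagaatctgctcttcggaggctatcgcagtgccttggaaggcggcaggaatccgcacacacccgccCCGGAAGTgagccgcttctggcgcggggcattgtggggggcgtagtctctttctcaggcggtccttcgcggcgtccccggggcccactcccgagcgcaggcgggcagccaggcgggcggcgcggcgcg

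THAP1, which encodes another THAP zinc-finger protein that binds HCF-1 and is known as a dystonia gene, had the second lowest promoter score of the 9. Its peak on chromosome 8 from 42842797 to 42843079 had a score of 42. The peak overlapped the long noncoding RNA gene LOC124901940 and lay in the first intron of THAP1, in sequence that the table annotates as a CpG island. It began 246 bp and ended 528 bp downstream of the start, so that, as at THAP11, no peak base covered the start itself. A lower score was found for 25.7% of all genes, and for 22.7% of the 406 genes with a promoter peak on the same chromosome, whose median was 75.

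HCFC1, the HCF-1 gene, had a promoter peak of 3520 bp that scored 112, on chromosome X from 153969683 to 153973202. The gene runs from 153947557 to 153971818 on the minus strand, and the peak reached 2135 bp into it and 1384 bp upstream, past the start of TMEM187, a membrane protein gene that begins 936 bp away on the other strand. The score was above that of 76.7% of all genes, and of 84.2% of the 385 genes with a promoter peak on chromosome X. The table named this peak alone for HCFC1. By position, however, 13 peaks were centred inside the gene, and 12 of them were named for other genes whose TSS lay nearer, 7 for the antisense RNA HCFC1-AS1 and 5 for the neighbour RENBP. These 12 had scores from 17 to 104, with a median of 36.5. The highest, from 153953203 to 153957035, was 3833 bp wide and lay over an exon deep in the gene. Together the 13 peaks held 12229 bases of HCFC1, 50.4% of its length.

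That number of peaks was unusual for the length of the gene but less so for its surroundings. Of 4206 protein-coding genes between 1.5 times shorter and 1.5 times longer than HCFC1, 17 (0.404%) had 13 or more peaks, and their median was 1. The 1 Mb around the HCFC1 start held 239 peaks, more than around 99.2% of protein-coding genes, whose median was 27. HCFC1 had 5.36 peaks per 10 kb of gene, while the 38 protein-coding genes within 500 kb of its start had a median of 3.45 and all protein-coding genes a median of 0.206. Of those 38 genes, 5 had more peaks per 10 kb than HCFC1, and 35 had at least 1 peak. What part this dense region has in the values of HCFC1 was not tested. Around the other genes described here the count in 1 Mb was between 10 and 65, with 10 at HCFC2 and THAP1, 47 at OGT, 60 at NRF1 and 65 at YY1.

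**Figure D3:**
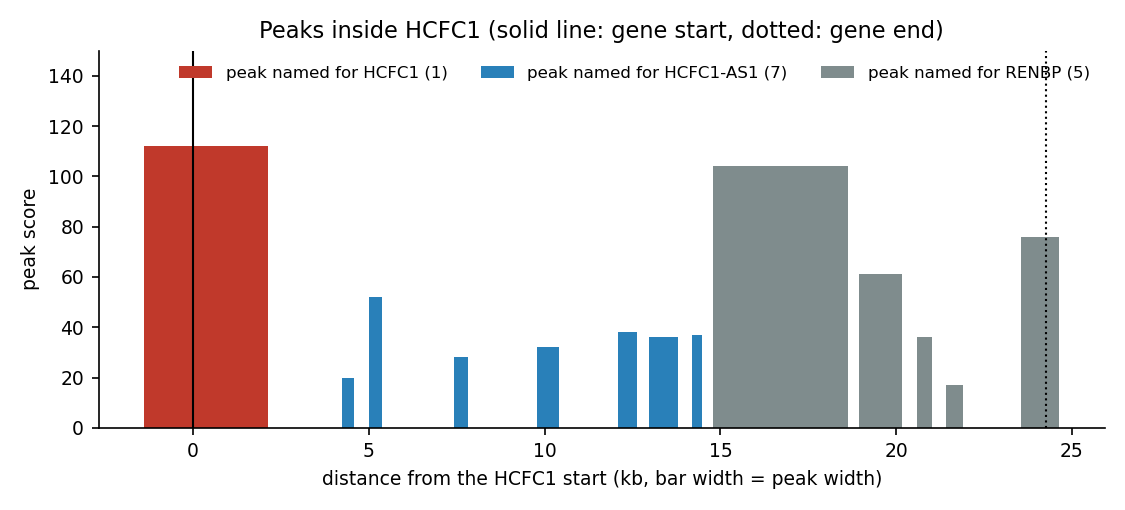
Score of each of the 13 peaks centred inside HCFC1 against its distance from the gene start (kb), with bar width equal to peak width and colour showing the gene that the table names for the peak. The peak over the start, with a score of 112, is the only one named for HCFC1, and 12 more, with scores up to 104, run through to the end of the gene.

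HCFC2, which encodes a smaller relative of HCF-1, was given no peak by name, yet a peak lay over its start. On chromosome 12 a peak from 104063926 to 104064561, 636 bp wide and with a score of 61, was named for GLT8D2, a glycosyltransferase gene that runs the other way. The table placed the TSS of GLT8D2 66 bp from the peak centre, while the start of HCFC2 at 104064531 lay 288 bp from it, so the rule of 1 gene per peak gave the peak to GLT8D2. The peak ended 30 bp inside HCFC2. Its score was above the highest promoter score of 45.8% of genes. With HCFC2 counted by position all 10 genes had a peak centred within 1000 bp of the start. RefSeq gave a promoter sequence for 7 of them, so that 7 of 7 compare with 60.8% (9626) of the 15842 RefSeq protein-coding genes with a promoter sequence. The median score of the 10 was then 92. The promoter is shown because the peak covers 281 of its 300 bases and ends inside it (RefSeq, GRCh38.p14, chr12:104064281-104064580, plus strand). The first capitals mark a match to the THAP1 motif TNNGGGCA, inside the peak, and the second a match to the YY1 motif AANATGGCG, of which the peak holds only the beginning.
HCFC2: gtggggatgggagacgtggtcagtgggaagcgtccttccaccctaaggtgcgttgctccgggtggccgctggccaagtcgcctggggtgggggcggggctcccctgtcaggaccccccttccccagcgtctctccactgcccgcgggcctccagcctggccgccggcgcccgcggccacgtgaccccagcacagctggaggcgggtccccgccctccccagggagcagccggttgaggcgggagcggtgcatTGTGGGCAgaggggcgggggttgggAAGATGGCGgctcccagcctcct

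The 2 enzymes of the group stood at opposite ends of the order. KMT2A, the histone methyltransferase that HCF-1 recruits, scored 345, rank 143 of all 68937 peaks and rank 72 among the highest promoter peaks of genes. Its peak on chromosome 11 from 118435939 to 118436958 was 1020 bp wide and nearly centred on the start, from 553 bp upstream to 466 bp downstream. No other peak was named for KMT2A or centred in its 90341 bp. OGT, the sugar transferase that cleaves HCF-1, had a peak on chromosome X from 71532806 to 71533117, 312 bp wide and with a score of 36. That peak lay almost wholly upstream, from 298 bp before the start to 13 bp past it. Its score was above that of 27.3% of genes with a promoter peak on chromosome X, where the median was 52. Both promoters are printed to set the highest and the lowest score side by side (RefSeq, GRCh38.p14, plus strand, KMT2A at chr11:118436242-118436541 and OGT at chrX:71532854-71533153). The capitals mark a YY1 motif match in KMT2A, and in OGT a THAP1 motif match on the minus strand followed by a match to the NRF1 motif GCATGCGC; all of these lay inside the peaks.
KMT2A: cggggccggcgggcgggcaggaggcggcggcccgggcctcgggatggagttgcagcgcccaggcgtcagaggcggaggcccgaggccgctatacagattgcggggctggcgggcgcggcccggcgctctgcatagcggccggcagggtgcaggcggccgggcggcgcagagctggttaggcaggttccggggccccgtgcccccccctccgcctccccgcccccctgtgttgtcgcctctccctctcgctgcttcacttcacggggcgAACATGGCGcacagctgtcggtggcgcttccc
OGT: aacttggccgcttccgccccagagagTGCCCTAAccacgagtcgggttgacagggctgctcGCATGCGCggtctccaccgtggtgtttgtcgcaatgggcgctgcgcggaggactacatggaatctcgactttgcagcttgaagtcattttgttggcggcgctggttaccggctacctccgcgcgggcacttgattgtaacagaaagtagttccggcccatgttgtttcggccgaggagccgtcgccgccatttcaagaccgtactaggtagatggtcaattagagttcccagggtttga
The KMT2A promoter had 76.3% G and C and 36 CpG pairs, and that of OGT 57.7% and 26, against medians of 62.7% and 22 over all 15842 promoters and of 67% and 28 over those with a peak at the start. The other promoters with a sequence did not follow the order of their scores. ZNF143 (score 175) had 59.3% and 20 pairs, and GABPA (130) had 62.7% and 21. YY1 (72) had 82.7% and 49, HCFC2 (61) had 73.7% and 23, and THAP11 (55) had 69% and 34.

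ZNF143 and GABPA each had a strong peak over a promoter that serves genes on both strands. ZNF143, a zinc-finger activator, scored 175, above 91.7% of genes, with a peak on chromosome 11 from 9460462 to 9461452. The peak covered the starts of both ZNF143 and its antisense neighbour ZNF143-AS1, which lie 314 bp apart, and the table's annotation column gives a ZNF143-AS1 transcript. GABPA, the DNA-binding subunit of GA-binding protein, scored 130, above 82.1% of genes, with a peak on chromosome 21 from 25734377 to 25735854. This peak also covered the start of ATP5PF, a subunit gene of the mitochondrial ATP synthase on the other strand, and the annotation column gives an ATP5PF transcript. Which of the genes at a shared promoter a peak belongs to cannot be told apart from its position. ZNF143 and GABPA had no other peak by name. The GABPA promoter is shown for the match to the ETS motif that GABPA itself binds, on the minus strand in capitals, 67 to 60 bp before the start and inside the peak (RefSeq, GRCh38.p14, chr21:25734722-25735021, plus strand).
GABPA: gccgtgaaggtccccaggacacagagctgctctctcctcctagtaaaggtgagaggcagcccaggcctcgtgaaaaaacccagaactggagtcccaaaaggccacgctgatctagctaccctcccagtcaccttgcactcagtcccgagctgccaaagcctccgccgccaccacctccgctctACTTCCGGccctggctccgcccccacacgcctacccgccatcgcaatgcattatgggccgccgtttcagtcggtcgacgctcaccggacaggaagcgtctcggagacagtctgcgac

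NRF1 and YY1 were the genes with peaks farther out, and together with THAP11 they held all 7 peaks outside promoters that the table named for the group. NRF1, an activator of nuclear genes for mitochondria, had 5 peaks, a number that 20.9% of named protein-coding genes reached or passed. Its promoter peak on chromosome 7 from 129611382 to 129612780 had a score of 165 and was 1399 bp wide, in a CpG island at the beginning of the first intron. The 4 others were low, with scores of 26, 26, 28 and 35. The upstream pair lay 27709 bp and 11305 bp from the start, the first in a Harlequin endogenous retrovirus. The pair inside the gene lay 32121 bp and 51954 bp downstream of the RefSeq start, the second in an SVA retroposon; the table puts them 13763 bp and 33596 bp from the nearest TSS it knows.

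YY1, which encodes a zinc-finger factor that can activate or repress, had its highest score away from its promoter. The promoter peak on chromosome 14 from 100237974 to 100240720 was broad, 2747 bp, with a score of 72. It also covered the start of YY1-DT, a long noncoding RNA that starts 523 bp from YY1 and runs the other way. A peak of 776 bp from 100213938 to 100214713, centred 24819 bp upstream in a CpG island, had a score of 143. It was called intergenic in the table, but in RefSeq it lies within YY1-DT. Among the 37511 peaks of protein-coding genes outside promoters, whose median score was 31, 99.2% scored lower than this one. A peak outside the promoter scored above the promoter peak in 24.7% of the 6203 genes that had both kinds, so the order itself is not rare. A second upstream peak from 100215564 to 100215835 had a score of 26. Over the 7 peaks outside promoters of the group the median score was 28.

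**Figure D4:**
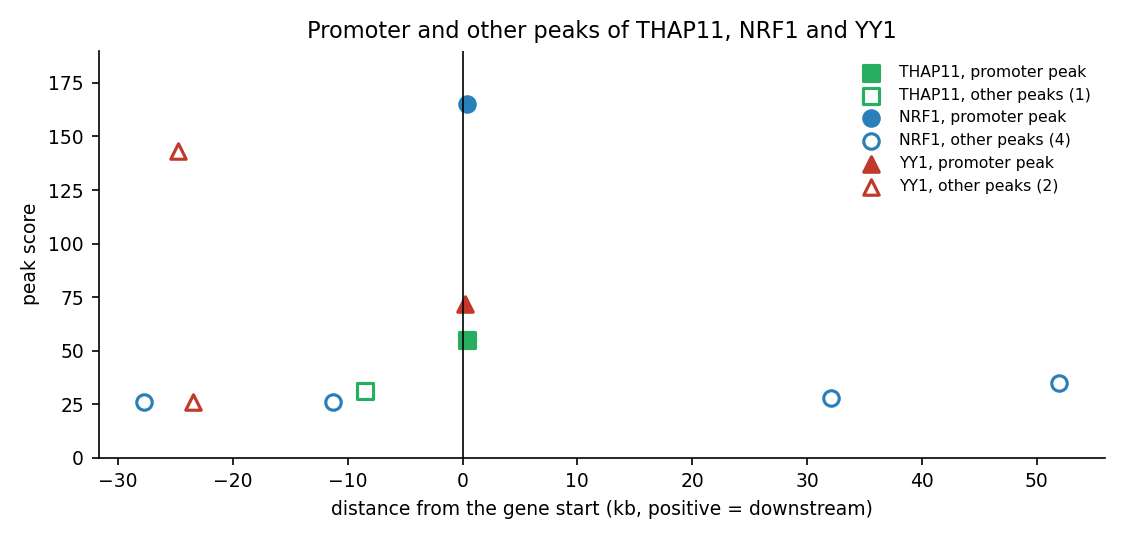
Score of every peak named for THAP11, NRF1 and YY1 against the distance of its centre from the gene start (kb), with filled symbols for promoter peaks and open symbols for the 7 others. The higher open YY1 triangle, with a score of 143, lies above the filled YY1 triangle at 72, while the other 6 open symbols lie between 26 and 35.

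Motifs of factors that these genes encode were searched in their own promoters. RefSeq promoter sequences of 300 bases were used for 7 of the 10 genes, and 5 motifs were searched on both strands. The core of the element shared by RONIN and ZNF143, searched as TACANNTCC, was in none of the 7 and in 4.67% of all 15842 promoters. The ETS motif was in 2 of 7 (THAP11 and GABPA) and in 6.19% of all, and the YY1 motif in 2 of 7 (KMT2A and HCFC2) and in 4.81% of all. The NRF1 motif was in 1 of 7 (OGT) and in 4.26% of all, and the THAP1 motif in 2 of 7 (HCFC2 and OGT) and in 14.7% of all. Among promoters with a peak at the start, the ETS, YY1 and NRF1 motifs were in 8.35%, 6.42% and 5.38%, against 2.83%, 2.32% and 2.53% of promoters without one. The RONIN and ZNF143 core was in 4.99% of promoters with a peak, against 4.17% of those without, and the THAP1 motif in 13.95%, against 15.89%. Promoters with a peak had a median of 67% G and C and those without one 54%, and the part of base composition in these shares was not tested. No matches overlapped, 5 of the 7 matches lay inside the peak, and ZNF143 and YY1 had none. A match is a place with these letters, not a bound site.

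Relatives and partners of the 10 genes, in 4 lists of 55 genes, also had promoter peaks in most cases. Of the 55, 48 were named in the table, and 47 of these had a promoter peak (97.9%, against 78.6% of all named genes). By RefSeq start, whatever gene the peak was named for, 40 of the 45 with a promoter sequence had a peak within 1000 bp. The share of all such genes was 60.8%. By list, in the order below, these were 8 of 9, 8 of 9, 15 of 17 and 9 of 10. The median score of the 47 was 90, against 63 over all genes. The other THAP genes, which share the DNA-binding domain of RONIN, had a peak in 7 of 10, which were all 7 of those named. Their scores ran from 31 to 98, led by THAP7 (98), THAP4 (90) and THAP12 (68). With RONIN and THAP1 added, the family median over 9 genes was 55, the score of THAP11 itself, which ranked 5 of 9. THAP2, THAP5 and THAP6 were the nearest gene of no peak; a peak named for ZFC3H1 (36) lay at the start of THAP2 and one named for DNAJB9 (101) at the start of THAP5. Subunits of histone methyltransferase complexes like that of KMT2A had a peak in 10 of 12, which were all 10 of those named. Their median was 93.5, led by BOD1L1 (139), MEN1 (125) and SETD1B (106). DPY30 and CXXC1 were not named.

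Other proteins that associate with HCF-1 had a peak at 17 of 19 genes (17 of the 18 named), with a median of 68. ASXL1, a partner of the deubiquitinase BAP1, came closest to KMT2A with a score of 340, followed by CREB3 (221), a transcription factor that binds HCF-1, and FOXK1 (149). BAP1 itself had 26. HCFC1R1, a small HCF-1 binding protein, had no promoter peak by name, though a peak named for THOC6 (31) lay at its start, and POU2F1 was not named. Other promoter factors had a peak at 13 of 14 genes (all 13 named), with a median of 106, led by GABPB2 (261), NFYC (224) and ZNF76 (159). GABPB1 was not named, but a peak named for GABPB1-IT1 (97) lay at its start.

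Relatives and direct partners of the group had these scores beside it. KMT2A had 345 and its relative KMT2B 90, with 75 at SETD1A. YY1 had 72 and YY2 17, and OGT had 36 while OGA, which removes the sugar that OGT adds, had 48. HCFC1 had 112 and HCFC2, by position, 61. ZNF143 and its relative ZNF76 were near each other with 175 and 159. GABPA had 130 and GABPB2, which encodes a partner subunit, 261. None of these differences has a replicate error.

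**Figure D5:**
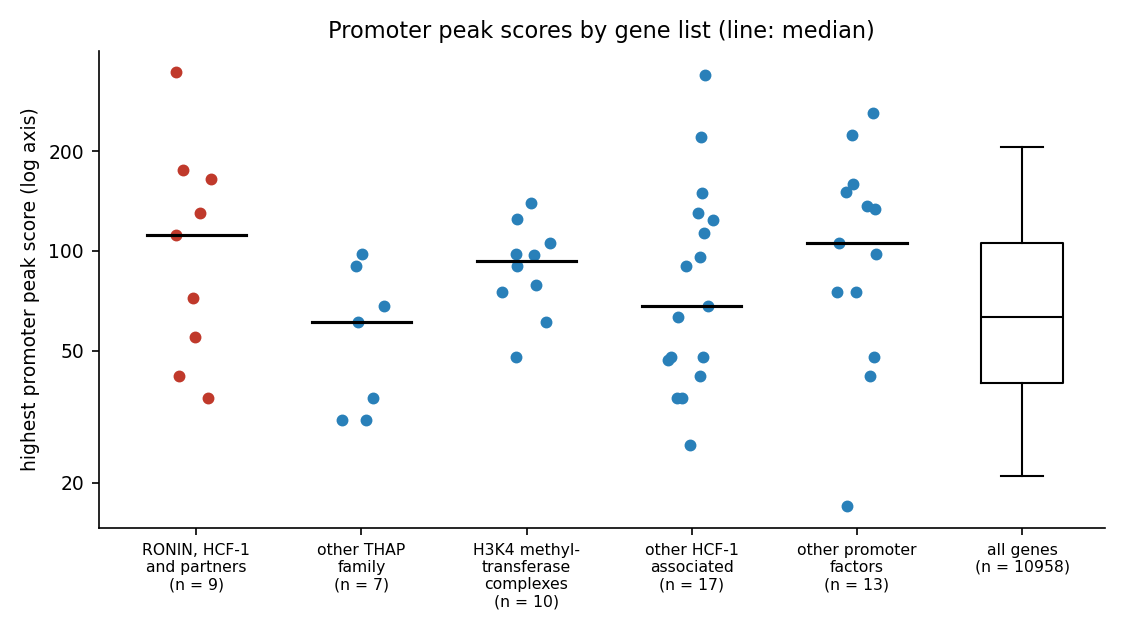
Highest promoter peak score (log axis) of the 9 named genes of the RONIN and HCF-1 group, of the 4 lists of relatives and partners, and of all 10958 genes as a box (quartiles, with whiskers at the 5th and 95th percentiles). Horizontal lines are medians, 112 for the group, 61, 93.5, 68 and 106 for the lists from left to right, and 63 for all genes.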

How the data were processed

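PML ChIP and input libraries of MDA-MB-231 cells were analysed as 1 deposited, annotated peak table. Tools listed in the submitters' processing notes, with hg38, are HOMER 4.11.1, MACS2 2.1.1.20160309, Picard 2.0.1, BWA 0.7.12 and Trimmomatic 0.36; their settings are not given in the sources used here. Per the labels, duplicates were merged. The peak score is the deposited value, and promoter peaks were chosen by the deposited distance to the TSS. Other distances, and the edges of peaks, were counted from the RefSeq gene start. The table gives no replicate and no read depth, so no test was run and no interval is given. Widths count both end positions. Percentages of genes with a lower score refer to the highest promoter peak of each of the 10958 protein-coding genes that had one. Gene positions and promoter sequences came from RefSeq, GRCh38.p14. For HCFC1, NRF1 and THAP1 the gene end within 2 bp of the TSS implied by the peak table was taken as the start. Shared promoters are starts within 1000 bp. The genes and lists were chosen with earlier results of these data known. Named partners are the 3 highest scores of each list, genes without a promoter peak, and relatives or partners set beside the 10 genes; these pairs, the peaks inside HCFC1 and the comparison with genes of similar length were chosen after values were seen. The motif search was tested on simulated sequences. Calculations used Python 3.11.15, numpy 2.4.6 and pandas 2.3.3.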

Additional observations from a re-analysis of the deposited data

How the results depend on the processing

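The number of named genes with a promoter peak was 9 with a 500 bp or 5000 bp window, with any peak base in place of the centre, and with only peaks at or above the median score of the list. The share of all named protein-coding genes was 70.6% with the 500 bp window and 87.0% with the 5000 bp window. It was 64.3% with only peaks at or above the median score. Partner genes with a promoter peak numbered 39, 48 and 43 in these settings, against 47. With the 5000 highest-scoring peaks only, 5 of the genes (KMT2A, ZNF143, NRF1, GABPA and HCFC1), 21 partner genes and 6 peaks in all were left, against 9, 47 and 16 in the full list; fewer peaks enter by construction, and the share of all named protein-coding genes was 23.4%, against 78.6%. Assignment by RefSeq start gave 10 genes, through HCFC2, and the annotation column 7, without GABPA and ZNF143. Peaks centred between the ends of the genes numbered 20, against 16 named, and 12 of the 20 lay in HCFC1 under other names. The median promoter score was 92 with HCFC2 added, an alternative chosen after seeing the data. No paired analysis was possible because the table holds the merged duplicates without replicate columns; for the same reason no replicate could be left out.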
